A study of Mus musculus with 10 samples.

Results

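The carnitine shuttle and the malonyl-CoA gate that controls it were followed through 9 genes, taken by gene name from the 55401 genes of the deposited table. These were Slc22a5, Cpt1a, Cpt1b, Cpt1c, Cpt2, Crat, Acaca, Acacb and Mlycd, and all 9 were found. RNA-seq was available for limb muscle of foetal ICR mice at embryonic day 18.5, with skin and bones removed and all animals labelled wild type. The 5 GDM foetuses came from dams injected with streptozotocin, a toxin of the insulin-producing beta cell, at gestational days 6.5 and 12.5, and the 5 CTR foetuses from dams given vehicle buffer. The paper reports these data under foetal male muscle, although its RNA-seq methods name no sex. According to its methods, only dams above a set random blood glucose entered the GDM group. The labels give neither sex nor litter and name the cells as a mixture. Each p-value measures the spread between libraries. How many dams the libraries of a group come from is unknown, so this spread may not cover that between dams. The question of the comparison was how maternal hyperglycaemia in late gestation is reflected in foetal limb muscle.

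Long-chain fatty acids enter the mitochondrial matrix only as carnitine esters. Carnitine is taken up by the transporter encoded by Slc22a5, carnitine palmitoyltransferase 1 (CPT1) on the outer membrane makes the ester, a carrier exchanges it across the inner membrane, and CPT2 returns the acyl group to CoA. CPT1 is blocked by malonyl-CoA, which acetyl-CoA carboxylase makes and malonyl-CoA decarboxylase removes. In skeletal muscle the main CPT1 is the muscle isoform CPT1B, which is more sensitive to malonyl-CoA than the liver isoform CPT1A, and the carboxylase at the mitochondrial surface is ACC2.

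Most of the 9 genes were lower in GDM muscle. Cpt1a, Cpt1b, Cpt2, Crat, Acacb and Mlycd fell, Cpt1c rose, and Slc22a5 and Acaca did not pass the test. The largest change was that of Mlycd, the only remover of malonyl-CoA among the 9, whose mean was 33.4 FPKM in CTR and 8.26 FPKM in GDM muscle (n = 5 in each group), a 4.05-fold difference. Values are FPKM, that is fragments scaled to transcript length and to the mapped fragments of the library, and a gene was called at an adjusted p under 0.05 in limma on log2(FPKM + 1). Of the 13363 genes with at least 1 FPKM in at least 5 libraries, this test called 10.9% lower and 35.1% higher in GDM, against 6 lower and 1 higher of the 9. All 9 passed the filter, and none was below 1.50 FPKM in any library. In 6 of the 9 every GDM library was below every CTR library, which held for 7.43% of all tested genes, and in 1 every GDM library was above every CTR library, which held for 27.2%. The median log2 fold change was -0.91 over the 9 genes and 0.15 over all tested genes.

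**Figure D1:**
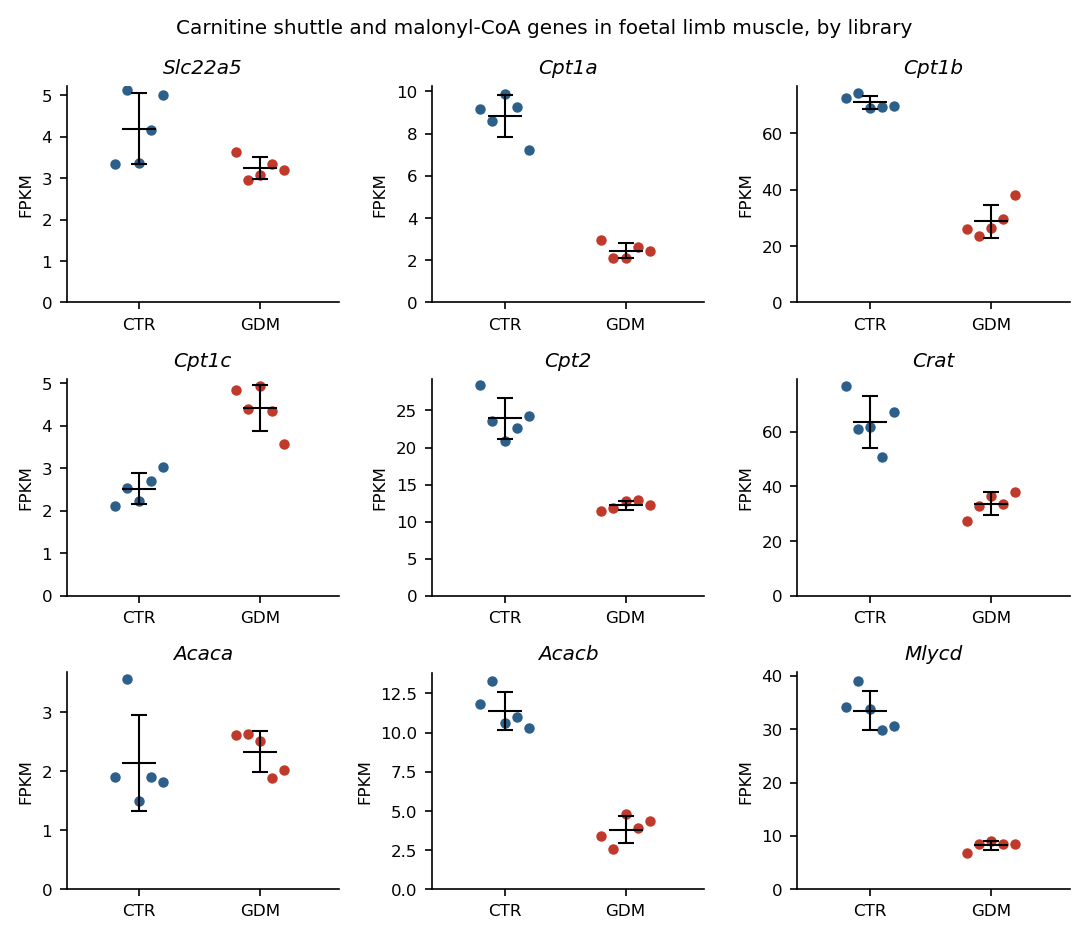
FPKM (vertical axes, starting at 0) of the 9 genes in the 5 CTR and 5 GDM libraries. Points are libraries, and bars show the mean and SD. The groups are apart in Cpt1a, Cpt1b, Cpt1c, Cpt2, Crat, Acacb and Mlycd and overlap in Slc22a5 and Acaca.

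The libraries differed in more than these genes. Depth, estimated from genes with a single transcript, was 17.6 to 20.7 M fragments in GDM and 14.3 to 16.4 M in CTR libraries, and a batch in step with depth and the group itself cannot be told apart. Mitochondrially encoded genes held 9.43 to 12.3% of the summed FPKM in GDM and 16.3 to 19.0% in CTR libraries. Scaling the libraries by their median ratio moved the median log2 fold change of all genes from 0.15 to 0.01, and higher genes then made up 51.0% of the calls instead of 76.4%. After this scaling 18.9% of all genes were called lower and 19.7% higher, against 7 and 1 of the 9. Muscle fibre genes checked the tissue label. Their summed FPKM was 22359 to 31221 in GDM and 38782 to 46031 in CTR libraries, and 18 of 25 were called lower. In whole tissue, fewer cells of a type and less RNA per cell cannot be told apart. When each library was scaled to its fibre genes, 2.88% of all genes were called lower and 68.5% higher, against 6 and 2 of the 9.

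Markers of other cell types also differed between the groups. Fat cell markers were called lower in 8 of 9 tested genes, with a median log2 fold change of -3.46. Their summed FPKM was 507 to 646 in GDM libraries and 865 to 1054 in CTR libraries other than CTR replicate 2, which held 3001. Most of the GDM sum was Car3, the 1 tested marker not called (limma adjusted p = 0.19). Car3 held 456 to 588 FPKM in GDM and 529.9 to 989 FPKM in CTR libraries, so the sum understates the fall of the other markers. The lipid droplet gene Plin1 was at 0.0953 to 0.321 FPKM in GDM libraries and at 7.08 to 35.8 FPKM in those of CTR. Brown fat markers, a list that contains Cpt1b, summed to 141 to 203 FPKM in GDM and 314 to 504 FPKM in CTR libraries. Of 4 tested genes 2 were called lower, Cpt1b itself and Cox8b. Their means were 28.7 and 137 FPKM in GDM and 71.0 and 309.6 FPKM in CTR libraries, which is most of the sum. The sum is therefore in part the fall of Cpt1b counted again. Cidea (limma adjusted p = 0.12) and Elovl3 were tested and not called. The thermogenic gene Ucp1 reached at most 0.105 FPKM in GDM libraries and ran from 0.0001 to 7.88 FPKM in CTR libraries. Of the liver cell markers only Trf was tested, and it was called lower. Their sum was 8.17 to 12.3 FPKM in GDM and 20.1 to 37.0 FPKM in CTR libraries other than CTR replicate 2, which held 224 FPKM, nearly all of it Trf, with Alb below 1 FPKM and Apob below 0.1 FPKM in every library. Chondrocyte markers were called higher in 5 of 6 tested genes, with sums of 30.2 to 61.6 FPKM in GDM and 9.85 to 24.1 FPKM in CTR libraries. Fibroblast markers were called higher in 4 and lower in 1 of 8, with sums of 2077 to 2602 and 1296 to 1770 FPKM in that order. Most of the difference between these sums was Col1a1, with means of 1329 FPKM in GDM and 666 FPKM in CTR libraries. Col3a1 and Dcn were not called (limma adjusted p = 0.10 and 0.39). After median ratio scaling 3 of the 8 were called higher and 2 lower. Endothelial markers were called lower in 6 of 8, with sums of 125 to 146 and 169 to 221 FPKM. Schwann cell markers were called lower in 3 of 7 (73.2 to 145 and 101 to 289 FPKM), macrophage markers in 2 of 8 (81.5 to 118 and 98.8 to 139.8 FPKM) and erythroid markers in 2 of 7 (3134 to 7896 and 2587 to 5120 FPKM). Heart muscle markers were called higher in 1 of 3 tested genes (457 to 585 and 416 to 489.8 FPKM), beside 35.1% of all tested genes. The gene called was Myl4, with means of 145 FPKM in GDM and 84.3 FPKM in CTR libraries. Most of the sum was Sln, which was not called (361 and 343 FPKM, limma adjusted p = 0.59). Myl7, Nppa, Nppb and Tnni3 were below the filter, with means under 1 FPKM in both groups, and Ryr2 was below 0.1 FPKM throughout. What these markers contribute to the values of the 9 genes was not tested. The fits without CTR replicate 2 and with the fibre scaling, given beside the genes they touch, cannot decide it. Without CTR replicate 2 the other CTR libraries still held far more Plin1 than any GDM library. The fibre scaling changes whole libraries and leaves the RNA of other cell types in them.

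CTR muscle had a clear order of levels. Per kilobase, Cpt1b had the highest mean (71.0 FPKM), followed by Crat (63.5 FPKM), Mlycd (33.4 FPKM), Cpt2 (23.9 FPKM), Acacb (11.4 FPKM), Cpt1a (8.83 FPKM), Slc22a5 (4.20 FPKM), Cpt1c (2.52 FPKM) and Acaca (2.13 FPKM). Cpt1b and Crat overlapped in range, as did Cpt1c and Acaca, and every other gene was apart from the next. In GDM muscle Crat (33.7 FPKM) and Cpt1b (28.7 FPKM) overlapped at the top, and Cpt2 (12.2 FPKM) stood above Mlycd (8.26 FPKM) with no overlap, in the opposite order to CTR muscle. The other 5 genes, from Cpt1c (4.41 FPKM) through Acacb (3.81 FPKM), Slc22a5 (3.24 FPKM) and Cpt1a (2.45 FPKM) to Acaca (2.33 FPKM), each overlapped with the next.

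Slc22a5 (ENSMUSG00000018900, chr11:53864542-53891660 on the minus strand of GRCm38) encodes OCTN2, the sodium-dependent carnitine transporter of the plasma membrane. The GDM libraries held 3.63, 2.96, 3.07, 3.35 and 3.20 FPKM for replicates 1 to 5, and the CTR libraries 3.34, 5.13, 3.36, 4.17 and 5.00 FPKM. CTR replicates 1 and 3 lay within the GDM range and the other CTR libraries above it. This gave a log2 fold change of -0.28 (standard error 0.11, 95% confidence interval -0.52 to -0.04), a limma adjusted p of 0.058 and an unadjusted two-sided exact permutation p of 0.048. The call depended on the scaling. The adjusted p in limma was 0.011 after median ratio scaling (log2 fold change -0.42) and 0.0083 after quantile normalization (log2 fold change -0.43). Scaling to fibre genes gave a log2 fold change of 0.07, with a limma adjusted p of 0.68. It also depended on single libraries, with adjusted p values of 0.027 without CTR replicate 1 and 0.028 without CTR replicate 3.

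CPT1 comes in a muscle, a liver and a brain form. Cpt1b, the muscle form (ENSMUSG00000078937, chr15:89416405-89425863, minus strand), held 25.9, 23.6, 26.3, 29.6 and 38.2 FPKM in GDM replicates 1 to 5 and 72.6, 74.4, 69.1, 69.2 and 69.8 FPKM in CTR replicates 1 to 5. The CTR libraries lay close together, with a coefficient of variation of 3.32% against 19.8% in GDM, and GDM replicate 5 was the highest of its group. The log2 fold change was -1.30 (standard error 0.11, limma adjusted p = 2.3e-05), and -0.85 after scaling to fibre genes, when it was still called. A readthrough gene model, Gm44502, overlaps Cpt1b on the same strand and held 0.164 to 5.90 FPKM in GDM and at most 3.73 FPKM in CTR libraries. Adding it to Cpt1b left the groups apart, at 23.8 to 39.0 and 70.4 to 76.4 FPKM, with a log2 difference of -1.26 (exact permutation p = 0.0079, the smallest that 5 against 5 libraries allow).

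Cpt1a, the liver form (ENSMUSG00000024900, chr19:3322334-3385733, plus strand), was much lower in level and had a larger log2 fold change. It held 2.97, 2.12, 2.10, 2.65 and 2.42 FPKM in the GDM libraries and 9.19, 8.58, 9.89, 9.27 and 7.22 FPKM in the CTR libraries. The highest GDM library was below the lowest CTR library by a wide margin. In limma the log2 fold change was -1.51 (standard error 0.10, adjusted p = 7.4e-06). It was -1.14 after scaling to fibre genes and still called.

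Cpt1c, the brain form, which sits in the endoplasmic reticulum and has little transferase activity, went the other way (ENSMUSG00000007783, chr7:44959372-44974851, minus strand). The GDM libraries held 4.84, 4.38, 4.93, 4.34 and 3.57 FPKM and the CTR libraries 2.11, 2.54, 2.23, 2.69 and 3.02 FPKM. Every GDM library was above every CTR library. The log2 fold change was 0.62 (standard error 0.09, limma adjusted p = 4.5e-04), and it remained called higher in each of the 20 alternative fits, between 0.48 and 0.96. Neuron markers, which could accompany a brain isoform, were called in 0 of 2 tested genes in limma (Prph, adjusted p = 0.18, and Stmn2, 0.59). The neurofilament genes of that list were below the filter and were not tested, but Nefl was at 0.910 to 2.44 FPKM in GDM and 0.0909 to 0.373 FPKM in CTR libraries, and Nefm at 0.625 to 1.09 and 0.149 to 0.318 FPKM. For both, every GDM library was above every CTR library, as for Cpt1c, while Nefh overlapped (0.0964 to 0.313 and 0.0695 to 0.122 FPKM). The list's summed FPKM was 4.28 to 8.36 in GDM and 3.39 to 4.39 in CTR libraries, with Snap25 and Elavl4 below 0.1 FPKM in every library, and their part in the Cpt1c difference was not tested. An antisense gene model at the locus, 6530437J22Rik, reached 0.596 FPKM at most, and whether strand was used in the counting is not stated.

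The windows at the starts that RefSeq gives for Cpt1a and Cpt1c are shown because the liver and brain isoforms moved in opposite directions. They run from 250 bases before to 50 bases after that start (GRCm38.p6), 5′ to 3′ on the strand of the gene, at chr19:3323051-3323350 on the plus strand for Cpt1a and at chr7:44974802-44975101 on the minus strand for Cpt1c. The Cpt1a window lies wholly inside the gene as GENCODE annotates it, downstream of its first base. Capitals mark AGGTCA, the core letters that nuclear receptors such as the PPARs and the ERRs bind, on either strand, and the letters TGACG of a cAMP response element, also searched, were found in neither.
Cpt1a: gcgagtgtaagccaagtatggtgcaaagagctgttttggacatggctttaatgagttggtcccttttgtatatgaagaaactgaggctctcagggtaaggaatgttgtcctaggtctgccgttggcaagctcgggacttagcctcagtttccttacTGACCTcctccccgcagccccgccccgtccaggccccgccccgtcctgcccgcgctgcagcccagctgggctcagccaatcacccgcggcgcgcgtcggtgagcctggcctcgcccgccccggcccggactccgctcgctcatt
Cpt1c: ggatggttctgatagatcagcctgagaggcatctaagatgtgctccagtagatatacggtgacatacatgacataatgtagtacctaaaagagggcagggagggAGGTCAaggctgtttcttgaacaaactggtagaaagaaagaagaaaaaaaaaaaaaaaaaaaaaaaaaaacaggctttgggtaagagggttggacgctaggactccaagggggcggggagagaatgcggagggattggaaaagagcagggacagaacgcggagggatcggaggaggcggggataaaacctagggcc
Cpt1a held AGGTCA on the opposite strand at position -94 and Cpt1c on the gene's own strand at position -146, so the isoform that fell and the isoform that rose both carried it.

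Together the 3 isoforms summed to 80.1 to 85.5 FPKM in CTR and 30.1 to 44.2 FPKM in GDM libraries. Within that sum Cpt1a made up 10.7 ± 1.22% (SD, n = 5) in CTR and 6.97 ± 1.24% (SD, n = 5) in GDM libraries, with no overlap (9.02 to 12.2% and 5.47 to 8.81%). The Cpt1c share was 3.06 ± 0.492% and 12.7 ± 2.85%, in that order. Cpt1b remained the major form in every library, at 85.1 to 87.2% in CTR and 76.8 to 86.5% in GDM. These shares are given as a description, with no test.

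**Figure D2:**
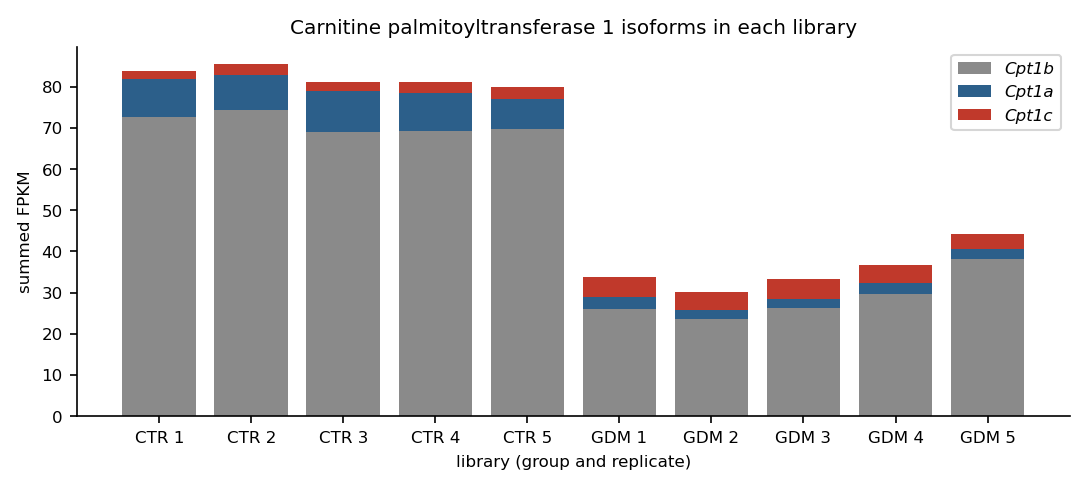
Summed FPKM of the CPT1 isoforms (vertical axis, starting at 0) in each library, with Cpt1b in grey, Cpt1a in blue and Cpt1c in red. The sums are 80.1 to 85.5 FPKM in the 5 CTR and 30.1 to 44.2 FPKM in the 5 GDM libraries, and Cpt1b is the largest block in each.

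The liver to muscle ratio was then compared within each library, where the scaling of the library cancels. Cpt1a over Cpt1b was 0.115, 0.0895, 0.0798, 0.0897 and 0.0633 in the GDM libraries and 0.127, 0.115, 0.143, 0.134 and 0.103 in the CTR libraries. GDM replicate 1 overlapped the CTR range and the other GDM libraries were below it. The log2 ratio was lower by 0.53 in GDM (-3.54 ± 0.31 against -3.02 ± 0.18, SD, n = 5), with an exact permutation p of 0.016 and a Benjamini-Hochberg value of 0.020 over the 5 ratios tested here. Adding 1 FPKM to both genes, which weighs on the low values of Cpt1a, reduced the difference to -0.21 with an exact permutation p of 0.18, so the shift between the isoforms depended on that choice while the fall of each did not.

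Behind CPT1, both matrix transferases fell. Cpt2 (ENSMUSG00000028607, chr4:107903981-107923610, minus strand) returns the long-chain acyl group from carnitine to CoA at the inner membrane. It held 11.5, 11.8, 12.8, 12.9 and 12.2 FPKM in the GDM libraries and 28.4, 23.6, 20.9, 22.6 and 24.2 FPKM in the CTR libraries. The GDM values were tightly grouped, with a coefficient of variation of 4.93%, and lay below all CTR values. The log2 fold change was -0.91 (standard error 0.08, limma adjusted p = 2.3e-05). It was -0.48 after scaling to fibre genes, with an adjusted p of at most 0.0021 over all alternatives.

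Crat (ENSMUSG00000026853, chr2:30400471-30415813, minus strand) encodes carnitine acetyltransferase, which moves short acyl groups between CoA and carnitine and so buffers acetyl-CoA. The GDM libraries held 27.4, 32.8, 36.6, 33.6 and 38.1 FPKM and the CTR libraries 76.8, 61.1, 61.6, 50.6 and 67.2 FPKM. The groups did not overlap, although CTR replicate 4 came nearest to the GDM range. Crat changed by a log2 value of -0.89 (standard error 0.12, limma adjusted p = 2.0e-04), and -0.45 after scaling to fibre genes. Dolpp1, which overlaps Crat on the other strand, held 4.50 to 5.95 FPKM in GDM and 3.59 to 5.51 FPKM in CTR libraries.

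Malonyl-CoA decarboxylase, encoded by Mlycd (ENSMUSG00000074064, chr8:119394878-119411102, plus strand), turns malonyl-CoA back into acetyl-CoA and so relieves CPT1. The GDM libraries held 6.89, 8.47, 9.10, 8.43 and 8.41 FPKM and the CTR libraries 34.1, 39.0, 33.7, 29.8 and 30.6 FPKM. The gap between the groups was wider than the range of either group. The log2 fold change was -1.89 (standard error 0.09, 95% confidence interval -2.09 to -1.70) with a limma adjusted p of 1.3e-06, and by p-value the gene ranked 4 among the 13363 tested. Scaling to fibre genes gave -1.47 and median ratio scaling -2.06, and leaving out single libraries -1.93 to -1.84.

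Acacb (ENSMUSG00000042010, chr5:114146535-114250761, plus strand) encodes ACC2, the carboxylase anchored at the outer mitochondrial membrane of muscle. It held 3.43, 2.56, 4.81, 3.90 and 4.34 FPKM in the GDM libraries and 11.8, 13.3, 10.6, 11.0 and 10.3 FPKM in the CTR libraries. The groups were well apart. Its log2 fold change was -1.38 (standard error 0.13, limma adjusted p = 3.0e-05), and -0.99 after scaling to fibre genes. Without CTR replicate 2, the library richest in fat cell genes and the highest for Acacb, it was among the calls that held, as were those of Cpt1a, Cpt1b, Cpt2, Crat and Mlycd. Plin1 was at 7.08 FPKM or more in every CTR library and at most 0.321 FPKM in GDM libraries. The part of fat cells in these calls was therefore not tested by that fit.

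Acaca (ENSMUSG00000020532, chr11:84129672-84401651, plus strand) encodes ACC1, the cytosolic carboxylase that feeds fatty acid synthesis in liver and fat. The GDM libraries held 2.61, 2.63, 2.52, 1.89 and 2.02 FPKM and the CTR libraries 1.91, 3.56, 1.50, 1.90 and 1.81 FPKM. CTR replicate 2 was the highest of all 10, and of the others 2 lay below the GDM range and 2 at its lower end. With all libraries the log2 fold change was 0.12 (standard error 0.15, 95% confidence interval -0.22 to 0.45, limma adjusted p = 0.56). Its sign followed the scaling, at -0.01 after median ratio scaling, -0.02 after quantile normalization and 0.42 after scaling to fibre genes (limma adjusted p = 0.046 in the last). Without CTR replicate 2 the log2 fold change was 0.26. Acaca was then narrowly called higher, with a limma adjusted p that rounds to 0.050. Fat cell markers summed to 3001 FPKM in that library, and their part in its Acaca value was not tested.

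The windows at the starts of Mlycd and Acacb are shown because these genes, a remover and a maker of malonyl-CoA, both fell. They come from the same RefSeq table (GRCm38.p6), at chr8:119394644-119394943 and at chr5:114165268-114165567, both on the plus strand, with AGGTCA and TGACG in capitals on either strand. The Acacb window, like that of Cpt1a, lies wholly inside the gene as GENCODE annotates it, downstream of its first base.
Mlycd: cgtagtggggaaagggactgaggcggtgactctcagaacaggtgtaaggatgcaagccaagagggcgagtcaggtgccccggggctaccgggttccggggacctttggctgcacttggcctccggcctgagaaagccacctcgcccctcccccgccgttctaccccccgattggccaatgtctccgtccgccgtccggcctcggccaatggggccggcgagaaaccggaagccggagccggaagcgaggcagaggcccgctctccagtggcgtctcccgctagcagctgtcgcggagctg
Acacb: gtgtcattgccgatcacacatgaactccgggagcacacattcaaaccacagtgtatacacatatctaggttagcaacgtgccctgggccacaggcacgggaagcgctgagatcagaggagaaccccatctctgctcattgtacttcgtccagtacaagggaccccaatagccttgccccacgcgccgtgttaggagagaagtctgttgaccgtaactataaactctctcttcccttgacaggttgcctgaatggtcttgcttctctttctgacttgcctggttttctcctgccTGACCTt
Mlycd had neither motif, and Acacb had AGGTCA on the opposite strand at position 44, after the start. Of the 9 genes 7 had an entry in the table, and Cpt1b and Crat had none. The windows of Cpt1a, Acaca and Acacb are internal to the annotated genes, so their letters are not those before the gene's first base. AGGTCA was present in Cpt1a, Cpt1c and Acacb, 3 of the 7, and in 16.3% of the 32851 promoters of this length. TGACG was present in Slc22a5 alone, at position -97, and in 20.8% of all promoters. The longer forms were absent from the 7 windows and uncommon in general. TCAAGGTCA, the extended form for ERRs, was in 0.423% of promoters, a pair of AGGTCA letters in the same direction and 1 base apart in 0.0396%, and the full cAMP response element TGACGTCA in 1.79%. The E-box CANNTG, bound by myogenic factors, was in Cpt1a, Cpt2, Acaca, Acacb and Mlycd, and in 72.3% of promoters. All motifs were searched on both strands, and AGGTCA is contained in its longer forms as TGACG is in the full element. A match describes letters, not binding.

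**Figure D3:**
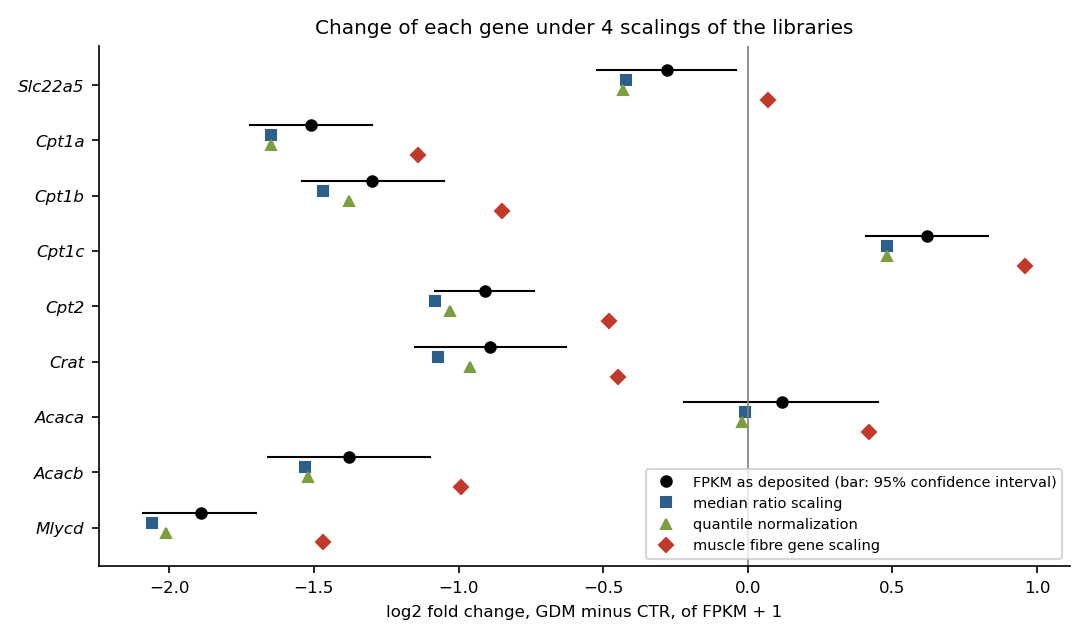
Log2 fold change of FPKM + 1, GDM minus CTR (horizontal axis), of the 9 genes with the FPKM as deposited (black, bar for the 95% confidence interval), after median ratio scaling (blue), quantile normalization (green) and scaling to muscle fibre genes (red). Mlycd, Cpt1a, Acacb, Cpt1b, Cpt2 and Crat stay below 0 and Cpt1c above 0 in all 4, while Slc22a5 and Acaca cross it.

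Maker and remover of malonyl-CoA were next set against each other within each library. Acaca over Mlycd was 0.379, 0.311, 0.277, 0.224 and 0.240 in the GDM libraries and 0.0558, 0.0913, 0.0444, 0.0638 and 0.0590 in the CTR libraries. All GDM ratios were above all CTR ratios. The log2 ratio was higher by 2.20 in GDM (-1.83 ± 0.30 against -4.03 ± 0.38, SD, n = 5), a 4.60-fold difference (exact permutation p = 0.0079, Benjamini-Hochberg 0.013 over the 5 ratios). Acaca itself was not called, with means of 2.33 FPKM in GDM and 2.13 FPKM in CTR libraries. The ratio therefore mainly restates the fall of Mlycd.

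Acacb over Mlycd, the pair of muscle, moved much less, since both genes fell. It was 0.498, 0.302, 0.529, 0.463 and 0.516 in the GDM libraries and 0.344, 0.341, 0.313, 0.369 and 0.337 in the CTR libraries. GDM replicate 2 was below every CTR library and the other GDM libraries above. The log2 ratio was higher by 0.41 in GDM (-1.14 ± 0.33 against -1.55 ± 0.08, SD, n = 5), with an exact permutation p of 0.048 and a Benjamini-Hochberg value of 0.048. With 1 FPKM added to both genes the difference was 0.51 (exact permutation p = 0.016). Leaving out single libraries kept the sign of the difference, but whether p stayed under 0.05 depended on the library left out. Without any of GDM replicates 1, 3, 4 and 5 or CTR replicates 1, 2, 3 and 5 the exact permutation p was between 0.056 and 0.10, with a difference of 0.36 to 0.42, and without GDM replicate 2 the difference was 0.56 (p = 0.0079).

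The carboxylases summed, Acaca and Acacb over Mlycd, gave 0.877, 0.613, 0.806, 0.687 and 0.756 in the GDM libraries and 0.400, 0.432, 0.357, 0.433 and 0.396 in the CTR libraries. All GDM values were above all CTR values, a description with no test of its own. The summed carboxylases held 12.0 to 16.8 FPKM in CTR libraries and 5.19 to 7.33 FPKM in GDM libraries, so both sides of this ratio were lower in GDM.

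Between the carboxylases the liver form gained in share, as Acacb fell while Acaca itself was not called. Acaca over Acacb was 0.761, 1.03, 0.524, 0.484 and 0.464 in the GDM libraries and 0.162, 0.268, 0.142, 0.173 and 0.175 in the CTR libraries. The groups did not overlap. The log2 ratio was higher by 1.79 in GDM (-0.69 ± 0.50 against -2.48 ± 0.34, SD, n = 5, exact permutation p = 0.0079, Benjamini-Hochberg 0.013). The Acacb share of the carboxylase FPKM was 78.9 to 87.6% in CTR and 49.3 to 68.3% in GDM libraries. The direction was thus opposite to that of CPT1, where the liver form lost in share without a pseudocount.

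Cpt1b over Mlycd set the gated enzyme against the remover of its inhibitor. It was 3.76, 2.79, 2.89, 3.51 and 4.54 in the GDM libraries and 2.13, 1.91, 2.05, 2.32 and 2.28 in the CTR libraries. Every GDM ratio was higher than every CTR ratio. The log2 ratio differed by 0.69 (1.78 ± 0.29 against 1.09 ± 0.12, SD, n = 5, exact permutation p = 0.0079, Benjamini-Hochberg 0.013), so that Mlycd fell more than Cpt1b.

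**Figure D4:**
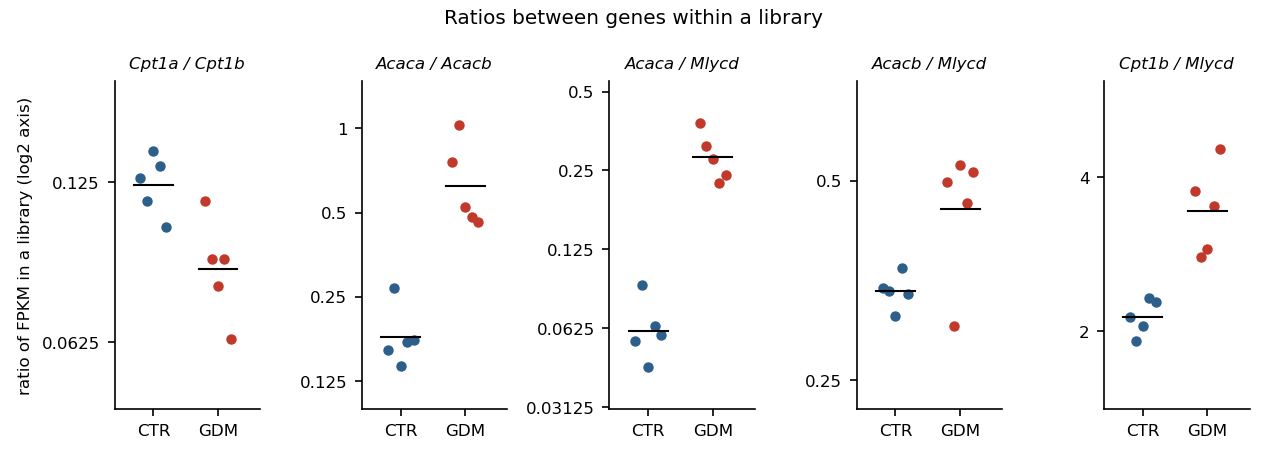
Ratios of FPKM between gene pairs within a library, on log2 vertical axes, in 5 CTR (blue) and 5 GDM (red) libraries. Lines are geometric means. Acaca over Acacb, Acaca over Mlycd and Cpt1b over Mlycd are higher in every GDM library, and the other pairs overlap between groups.

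Genes next to these in the pathway were read from lists of related genes, by counts and medians beside the 10.9% lower and 35.1% higher of all tested genes. Of the shuttle's partners, 2 of 4 tested genes fell and 0 rose in limma, with a median log2 fold change of -0.35. Slc25a20, the carrier that exchanges acylcarnitine for carnitine across the inner membrane, fell from 15.7 ± 1.53 FPKM to 5.30 ± 0.677 FPKM (SD, n = 5; log2 fold change -1.41, limma adjusted p = 7.7e-06). Crot, the peroxisomal carnitine octanoyltransferase, fell by 0.42 on the log2 scale (limma adjusted p = 1.6e-04). Slc22a21, a carnitine transporter related to Slc22a5, had a log2 fold change of -0.27 (limma adjusted p = 0.064).

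Carnitine synthesis was mixed, with 1 of 3 tested genes lower, 2 higher and a median of 0.63. Aldh9a1, an aldehyde dehydrogenase of that pathway, fell by 0.47 on the log2 scale (limma adjusted p = 0.0020). Shmt1 and Shmt2, serine hydroxymethyltransferases better known for folate metabolism, rose by 0.63 and 0.81 (limma adjusted p = 4.4e-05 and 7.0e-05). Bbox1, the last enzyme of the pathway, was below the filter at 0.372 to 0.642 FPKM in GDM and 0.145 to 0.414 FPKM in CTR libraries.

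Genes that supply or use malonyl-CoA rose in 3 and fell in 1 of 9, with a median of 0.22. Acly, which makes cytosolic acetyl-CoA from citrate, rose by 0.57 on the log2 scale (limma adjusted p = 2.4e-04), and Elovl1, a fatty acid elongase, by 0.47 (0.0037). Mcat, the malonyltransferase of mitochondrial fatty acid synthesis, fell by 0.44 (limma adjusted p = 0.0026). Fasn, the cytosolic fatty acid synthase that uses malonyl-CoA, had 7.95 ± 0.977 FPKM in GDM and 7.46 ± 3.57 FPKM in CTR libraries (SD, n = 5, limma adjusted p = 0.58). After median ratio scaling the list had 2 genes higher and 2 lower.

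Regulators of the carboxylases were mostly not called, with 2 of 13 higher and 1 lower. Prkaa1 and Prkag2, subunits of AMPK, the kinase that inactivates both carboxylases, had log2 fold changes of 0.25 and 0.33 (limma adjusted p = 0.0025 and 0.0042), and neither was called after median ratio scaling, when 0 of the 13 were higher in limma. Prkaa2, the catalytic subunit prominent in muscle, held 6.09 ± 0.926 FPKM in GDM and 7.16 ± 1.23 FPKM in CTR libraries (SD, n = 5, limma adjusted p = 0.22). Thrsp, which binds the carboxylase regulator MIG12, fell by 0.90 on the log2 scale (limma adjusted p = 0.016), with the fat cell markers lower in the same libraries.

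On the supply side of CPT1, 5 of 9 tested genes fell and 2 rose, with a median of -1.52. Fabp3, which binds fatty acids in the muscle cytosol, went from 597 ± 166 FPKM to 94.0 ± 15.5 FPKM (SD, n = 5; log2 fold change -2.62, limma adjusted p = 1.7e-05). Acsl1, which activates long-chain fatty acids to acyl-CoA, fell by 2.30 (limma adjusted p = 3.5e-05) and Cd36, a fatty acid translocase, fell by 1.52 (3.8e-05). Downstream, 14 of 15 enzymes of beta-oxidation in the matrix fell and 0 rose in limma, with a median of -0.98. Acadvl, the very-long-chain acyl-CoA dehydrogenase, fell by 1.29, Decr1, which handles unsaturated chains, by 1.49 and Acadm, the medium-chain dehydrogenase, by 1.12 (limma adjusted p of 1.5e-05 to 2.2e-05). The respiratory chain fell less, with 15 of 15 nuclear-encoded subunits lower and a median of -0.59, beside -0.51 for the muscle fibre genes. Examples were Uqcrc2 (-0.71), Ndufa9 (-0.77) and Ndufv1 (-0.84), and among fibre genes Myl1 (-0.77) and Tnnc2 (-0.77).

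**Figure D5:**
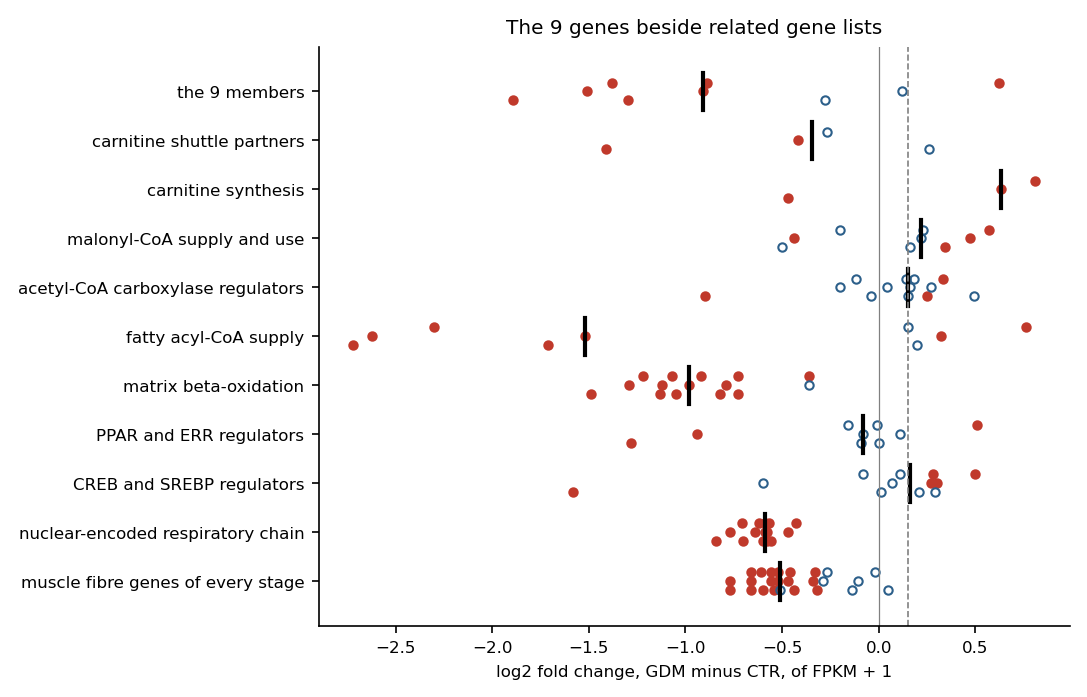
Log2 fold changes of FPKM + 1, GDM minus CTR (horizontal axis), of the 9 genes and of the tested genes in 10 lists. Filled red points passed the limma test, open blue points did not, black bars are medians and the dashed line is the median of all tested genes (0.15). Medians are -0.91 for the 9 genes, -1.52 for fatty acyl-CoA supply and -0.98 for matrix beta-oxidation.

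Among nuclear receptors and coactivators of fatty acid oxidation 2 of 9 tested genes fell and 1 rose. Esrra, the estrogen-related receptor alpha, fell from 12.1 ± 1.60 FPKM to 5.88 ± 1.15 FPKM (SD, n = 5; log2 fold change -0.94, limma adjusted p = 1.9e-04). Pparg, the fat cell receptor, had a log2 fold change of -1.28 (limma adjusted p = 0.014), and its CTR values ran from 3.63 to 17.8 FPKM. Ppara was low in level and rose from 0.694 ± 0.401 FPKM to 1.38 ± 0.375 FPKM (SD, n = 5, log2 fold change 0.51, limma adjusted p = 0.031). The groups overlapped for Ppara, with 1.08 FPKM in the lowest GDM and 1.15 FPKM in the highest CTR library. Its call was lost after median ratio scaling (log2 fold change 0.42, limma adjusted p = 0.077). With that scaling the list had 0 genes higher and 3 lower. Ppargc1a, the coactivator PGC1A, held 1.78 ± 0.390 FPKM in GDM and 1.97 ± 0.612 FPKM in CTR libraries (SD, n = 5), which left a log2 fold change of -0.08 (limma adjusted p = 0.71). Of the CREB and lipid synthesis regulators 4 of 12 rose and 1 fell. Mlxipl, which encodes the carbohydrate-responsive factor ChREBP, fell from 4.50 ± 0.723 FPKM to 0.843 ± 0.242 FPKM (SD, n = 5, log2 fold change -1.58, limma adjusted p = 1.5e-05). Its partner Mlx rose by 0.28 and Srebf2, a regulator of sterol synthesis, by 0.50 on the log2 scale, and 0 of the 12 were higher in limma after median ratio scaling.

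The tested genes whose profile over the 10 libraries was most like that of Mlycd were Slc25a34, a mitochondrial carrier, Hsdl2 and Acot2, a mitochondrial acyl-CoA thioesterase. Likeness was the root mean square difference of log2(FPKM + 1) after subtraction of each gene's CTR mean, and it was 0.191, 0.237 and 0.261 in that order. Slc25a34 went from 16.4 ± 2.62 to 4.35 ± 0.894 FPKM, Hsdl2 from 28.4 ± 4.29 to 8.40 ± 0.959 FPKM and Acot2 from 14.2 ± 3.34 to 2.68 ± 0.554 FPKM (SD, n = 5). For Cpt1b they were Slc25a20 (0.144), Acadvl (0.151) and Acadl, the long-chain acyl-CoA dehydrogenase (0.170). Acadl had the highest level of these, with 276 ± 33.6 FPKM in CTR libraries against 118 ± 14.8 FPKM in GDM libraries (SD, n = 5). The shift between the groups makes up most of each profile, so the likeness is mainly one of the size of that shift.

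The study's own thresholds ask for p of 0.05 or less without adjustment and a fold of 2 or more, or of 0.5 or less. By them Cpt1a, Cpt1b, Acacb and Mlycd were lower and 0 of the 9 higher on the limma scale of FPKM + 1. These thresholds held for 1.59% of all tested genes on the lower and 1.62% on the higher side. The closest to the fold limit were Cpt2 at 0.53 and Crat at 0.54 of the CTR level on that scale.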

How the data were processed

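Limb muscle RNA of 5 GDM and 5 CTR foetuses at embryonic day 18.5 was measured by poly(A) RNA-seq with a dUTP-marked second strand. The authors mapped reads with HISAT2 2.0.4 and deposited 1 FPKM value per gene and library from StringTie 1.3.4d (mm10 in the submitters' notes), and values of 0 appear at a floor of 0.0001. The deposited fold change (a ratio), its log2 value, and the p-value and q-value are the authors' own comparison and were not used. No per-sample columns were left over.

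The comparison had been planned for counts, and the plan's form for FPKM was taken, with R 4.3.3 and limma 3.58.1 and its trend and robust options. Values were log2(FPKM + 1), a gene needed 1 FPKM or more in 5 or more libraries, and p was adjusted by Benjamini-Hochberg over 13363 genes, with no covariate. A pseudocount of 1 understates changes of low genes. Ratios within a library and single genes were compared with two-sided exact permutation tests in Python 3.11.15 (pandas 2.3.3, numpy 2.4.6, figures with matplotlib 3.10.9), and input was read with data.table, version 1.17.8. Depth was not given and was estimated, so no counting intervals are given. The fit was tested on simulated data. Coordinates come from GENCODE vM21, which held 55141 of 55401 identifiers (99.53%), and promoters from RefSeq. No 2 libraries held the same values.

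The genes, lists, tests and alternatives were chosen with earlier results of these data known. Named were the 9 genes, up to 3 genes of each related list with the smallest adjusted p, Slc25a20, Ppara, Esrra, Ppargc1a, Prkaa2 and Fasn, and the 3 genes most like Mlycd and Cpt1b. A gene that this rule picks is not reported here. Bbox1 and single cell type markers were named after their values were seen. Alternatives were a pseudocount of 0.1, other filters, 4 scalings, limma without trend or robust, the replicate number as a block, the study's thresholds, ratios of FPKM + 1, and leaving out each library.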

Additional observations from a re-analysis of the deposited data

Results flagged for a closer look

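Among 28 groups of 5 libraries tested (9 genes and 5 ratios in each group), 3 held a library far from the others by Dixon's test (critical value 0.71), computed on log2(FPKM + 1) and, for ratios, on log2 ratios, where chance alone flags about 1 in 20. CTR replicate 2 was high for Acaca (3.56 FPKM against 1.50 to 1.91 FPKM in the other CTR libraries), with a gap of 0.747 of the range on the log2 scale. GDM replicate 1 was low for Mlycd (6.89 FPKM against 8.41 to 9.10 FPKM), with a gap of 0.714 of the log2 range. GDM replicate 2 was low for the ratio of Acacb to Mlycd (0.302 against 0.463 to 0.529), with a gap of 0.762 of the log2 range.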

How the results depend on the processing

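The direction and the call of Mlycd, Cpt1a, Cpt1b, Acacb, Cpt2, Crat and Cpt1c held in all 20 alternative fits. Slc22a5 changed sign after scaling to fibre genes (0.07), and Acaca after median ratio scaling (-0.01) and quantile normalization (-0.02). Of the 9 genes, 1 was called higher, against 2 after scaling to fibre genes, 0 at the study's thresholds and 1 to 2 when single libraries were left out, and 4 to 7 were called lower over all settings. Over all genes 1451 were called lower and 4691 higher, against 2529 and 2630 after median ratio scaling, 2343 and 2881 after quantile normalization and 385 and 9154 after scaling to fibre genes. The ratio of Cpt1a to Cpt1b was -0.21 with FPKM + 1. Leaving out single libraries gave log2 differences of -0.63 to -0.42 for it, 1.61 to 1.93 for Acaca to Acacb, 2.09 to 2.35 for Acaca to Mlycd, 0.36 to 0.56 for Acacb to Mlycd and 0.59 to 0.77 for Cpt1b to Mlycd. As a replicate block, the numbers of the labels gave 1269 genes lower and 4171 higher and changed no call among the 9. Same-numbered libraries had correlations of -0.0723 to -0.0191, so they share only a number. In the sign-flip test with this replicate block, whose smallest possible p is 0.0625, the log2 differences in the order above were -0.53, 1.79, 2.20, 0.41 and 0.69, with p = 0.062 in an exact test except for 0.12 in Acacb to Mlycd. Unknown depth limits the precision at low FPKM, and the causes of these changes were not tested.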
